A study of Homo sapiens with 8 samples.

Results

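The decapping complex and its activators were taken as 10 genes chosen by name: DCP2, DCP1A, DCP1B, EDC3, EDC4, DDX6, PATL1, LSM14A, LSM14B and EIF4ENIF1. All 10 were found among the 10105 genes of the deposited count table, and no threshold on their counts was used to choose them. The paper states an expression cutoff for the genes of this table, so presence in it did depend on expression. RNA-Seq, which counts mRNA, and Ribo-Seq, which counts ribosome-protected fragments (RPF, or footprints) and so follows ribosomes on mRNA, were performed in HEK293T, a human embryonic kidney cell line carrying the SV40 large T antigen. The WT group was the unedited line. The XRN1-null group was a line of the same cells edited by CRISPR/Cas9 with a guide to exon 6 of XRN1, the cytoplasmic 5′-3′ exonuclease. No other treatment was named for either group, and both grew for 24 h on dishes of 15 cm before harvest. Each genotype had 2 biological replicates per assay, giving 8 libraries. Because a single XRN1-null line was used, the edit and other differences between the lines cannot be told apart. The paper proposes that uncapped 3′ mRNA fragments, which are not translated, accumulate in null cells and are sequenced by RNA-Seq. Counts called mRNA here may include such fragments, and their part in the values below was not tested.

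Most cytoplasmic mRNAs are shortened at the poly(A) tail before the cap is removed. DCP2 cleaves the cap with the help of DCP1, enhancer proteins hold the enzyme on its substrate, and XRN1 then degrades the uncapped body. DDX6, PATL1, the LSM14 proteins and 4E-T, the product of EIF4ENIF1, connect translational repression to decapping and are known for their place in P-bodies, cytoplasmic granules of repressed mRNA.

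Library totals were 33757487 to 38145433 counts for RNA-Seq and 1921641 to 4399542 for Ribo-Seq, and the shallowest was WT Ribo-Seq replicate 1. The paper reports paired-end sequencing and fewer mapped RNA-Seq reads than these totals. Whether both reads of a pair were counted is not given in the sources used here. The 10 genes had 538 to 8014 counts each in RNA-Seq libraries and 30 to 1355 in Ribo-Seq libraries, so that footprint values carry the larger counting error. The targeted gene had 33.5 and 33 CPM of mRNA in WT and 282 and 253 CPM in the XRN1-null line, where CPM are counts relative to the TMM-scaled library total in units of 1 M counts. XRN1 footprints were 34.4 and 49.8 CPM in WT and 22.6 and 18.4 CPM in the null line. XRN1 mRNA was thus higher in both null libraries while its footprints were lower, and its footprints per mRNA fell by 4.09 on the log2 scale (FDR = 1.66e-06). FDR is the p-value of edgeR's quasi-likelihood test adjusted by Benjamini-Hochberg over all 10105 genes, and TMM is a scaling of library totals that balances most genes between libraries. Of 7 genes that mark these cells, 6 were in the table (KRT8, KRT18, VIM, NEFL, NEFM and CDH2, with PAX2 missing from it), at a summed mRNA level of 1120 to 1460 CPM in WT and 1190 to 1240 CPM in the null line. VIM made up 721 to 990 CPM of the WT sums, and within the list KRT18 mRNA rose by 0.49 (FDR = 0.0013) and NEFM mRNA fell by 0.59 (FDR = 0.00455). Of 5 markers of other cell types, PTPRC, ALB, CD3E and PECAM1 were not among the genes of the table. The remaining marker, COL1A1, had 13.9 to 15.4 CPM of mRNA in WT and 36.8 to 37.3 CPM in the null line, and whether the markers bear on the values below was not tested.

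PATL1, DCP1A and DDX6 were the 3 members whose mRNA rose in XRN1-null cells at an FDR below 0.005, the threshold used throughout. DDX6 was also the 1 member whose footprints rose. PATL1 footprints did not pass the test, EDC4 had the lowest footprint change of the 10, and no member passed the threshold for translational efficiency (TE, footprints relative to mRNA). Across all genes 22.9% of mRNAs were called higher and 23.2% lower, so 3 of 10 called higher and 0 of 10 called lower are read against that background. By the quasi-likelihood test called footprints were rare, with 0.633% of all genes higher and 1.14% lower. For TE the shares were 0.0495% and 1.78%. These shares depend on the test, since edgeR's likelihood ratio test called 10.5% of genes for footprints and 6.60% for TE. The paper also called more genes for both, with its own tests. The median log2 change of the 10 genes was 0.18 for mRNA, 0.22 for RPF and 0.05 for TE, beside medians over all genes of -0.01, 0 and 0.01. Both null values lay above both WT values for the mRNA of 5 members and below them for 2, while 41.0% and 43.7% of all genes were placed in these ways. For footprints, 7 members lay above and 3 below, against 32.1% and 32.3% of all genes. For TE these counts were 3 and 2, against 28.8% and 27.8% of genes. They rest on dividing libraries of the same number, which the labels do not mark as belonging together. The 10 genes together had 916 and 993 CPM of mRNA in WT and 1140 and 1120 CPM in null cells. Their summed footprints were 645 and 744 CPM in WT and 864 and 890 CPM in null cells. Most of the footprint difference came from DDX6, which alone had 154 and 200 CPM in WT and 336 CPM in each null library. CPM values are relative to all counted RNA of a library, and in these bulk samples fewer cells expressing a gene and less RNA per cell cannot be told apart.

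**Figure D1:**
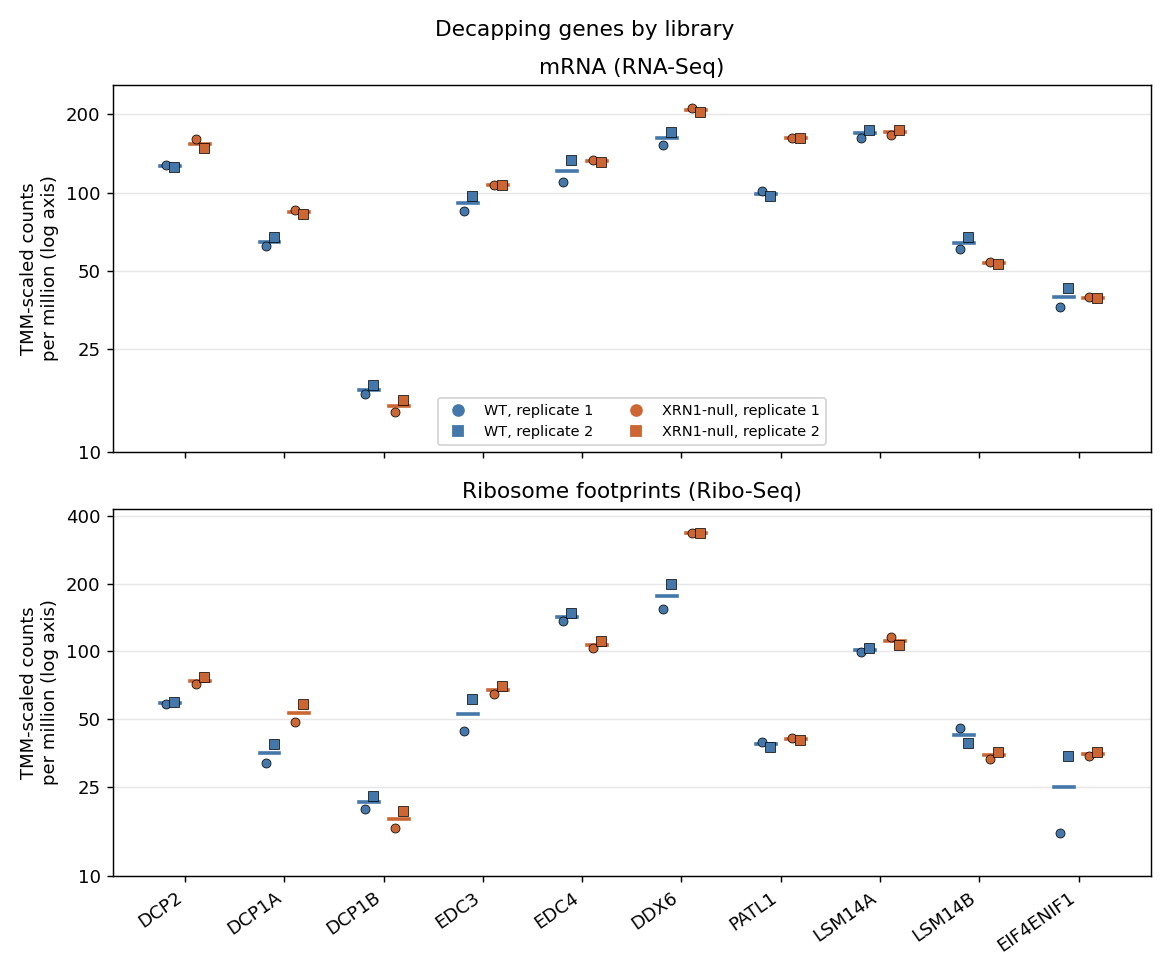
Level of each of the 10 decapping genes in every library, in CPM on a log axis, for mRNA (top) and footprints (bottom). Circles are replicate 1, squares replicate 2 and bars the mean of the 2 replicates. The XRN1-null values of PATL1 mRNA (both 163) and DDX6 footprints (both 336) stand clear of the WT values, while LSM14A and EIF4ENIF1 mRNA overlap.

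Promoter sequences are shown for PATL1, the member with the largest mRNA change, and for the paralogs DCP1A and DCP1B, whose mRNA changes had opposite signs. Each is the 250 bases before the RefSeq transcription start in GRCh38.p14, written 5′ to 3′ on the strand of the gene, with capitals for matches to GGGCGG (the GC box, a binding motif of Sp1-type factors) or CCGGAAG (an ETS-type motif), or their reverse complements. PATL1 is at chr11:59669038-59669287, DCP1A at chr3:53347544-53347793 and DCP1B at chr12:2004458-2004707, all on the minus strand.
PATL1: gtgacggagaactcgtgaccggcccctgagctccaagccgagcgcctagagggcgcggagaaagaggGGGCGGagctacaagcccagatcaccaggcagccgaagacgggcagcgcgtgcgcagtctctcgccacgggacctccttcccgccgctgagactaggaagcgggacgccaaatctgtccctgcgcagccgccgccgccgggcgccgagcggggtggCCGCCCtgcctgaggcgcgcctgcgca
DCP1A: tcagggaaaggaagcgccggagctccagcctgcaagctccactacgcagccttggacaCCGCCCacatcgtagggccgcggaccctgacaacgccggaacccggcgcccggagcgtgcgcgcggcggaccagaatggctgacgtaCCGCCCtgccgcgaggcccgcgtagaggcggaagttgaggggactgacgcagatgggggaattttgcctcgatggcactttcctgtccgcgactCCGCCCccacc
DCP1B: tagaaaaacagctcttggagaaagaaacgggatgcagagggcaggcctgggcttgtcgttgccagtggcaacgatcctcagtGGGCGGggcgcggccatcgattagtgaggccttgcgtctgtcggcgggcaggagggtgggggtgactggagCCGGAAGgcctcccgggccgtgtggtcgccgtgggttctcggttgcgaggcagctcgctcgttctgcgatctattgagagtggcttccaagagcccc
PATL1 held 2 GC boxes, DCP1A held 3, and DCP1B held 1 GC box and 1 ETS motif. On either strand, GGGCGG was found in 42.6% and CCGGAAG in 8.52% of 35116 promoters of this length. Neither TATAAA (10.7% of promoters) nor CCAAT (32.0%) matched in these 3. By contrast the DCP2 window, at chr5:112976548-112976797 on the plus strand, held 5 CCAAT matches and 2 GC boxes. GC content was 72.0% for PATL1, 68.4% for DCP1A, 63.6% for DCP1B and 58.4% for DCP2. Of the 10 genes, 9 had a promoter in the RefSeq table, the exception being LSM14A. The matched motifs are letters in a window, and the assays measured no factor binding to them.

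DCP2, the catalytic subunit that hydrolyses the cap, is encoded at chr5:112312399-112357892 (GRCh37, plus strand) in 11 exons with a coding length of 1260 bases. Its mRNA was 128 and 125 CPM in WT and 161 and 148 CPM in null cells. Both null libraries were the higher ones, but the log2 change of 0.29 (SE 0.0685) missed the threshold (FDR = 0.00714). Over the alternative settings that FDR ranged from 3.04e-06 to 0.156, and leaving out either WT library, or using DESeq2, the likelihood ratio test, library totals or a replicate block, put it below the threshold. A fit without 1 library leaves that group a lone library, which is assumed to vary like the pair of the other genotype, so the spread comes from that pair alone. Without a WT RNA-Seq library 62.4% and 67.3% of all genes were called in mRNA, and without either null one 27.2%. For footprints the shares were 12.8% and 23.4% without a WT library and 1.54% and 1.68% without a null one. FDR values from such fits, here and below, therefore differ with the pair that gives the spread. DCP2 footprints were 58.3 and 59.5 CPM in WT and 71.5 and 76.8 CPM in null cells, again without overlap, with a log2 change of 0.33 (SE 0.139, FDR = 0.125). TE, computed per replicate as footprint CPM over mRNA CPM, was 0.456 and 0.476 in WT and 0.444 and 0.519 in null cells, and the groups overlapped (log2 change 0.04, SE 0.142, FDR = 0.907). In WT this ratio was above that of 18.4% of genes, whose median was 0.821. Ratios compare poorly between genes, since footprints fall on coding sequence (1260 of 10110 bases for DCP2) and RNA-Seq reads on the whole transcript.

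DCP1A and DCP1B are alternative DCP1 subunits that activate DCP2. DCP1A lies at chr3:53317449-53381613 (minus strand, 10 exons) and DCP1B at chr12:2055219-2113701 (minus strand, 9 exons), and their transcripts shared 0 stretches of 30 bases. DCP1A mRNA was 62 and 67.3 CPM in WT and 85.4 and 82.9 CPM in null cells. Both null libraries exceeded both WT libraries, and the mRNA rose by 0.38 on the log2 scale (SE 0.0688, FDR = 0.0019). The call was lost without XRN1-null RNA-Seq replicate 1 or replicate 2, although the change was still 0.36 and 0.40. It was also lost with RNA-Seq counts thinned to footprint depth, at an unmoved change of 0.38 (FDR = 0.00876). Over 13 alternatives the change was 0.34 to 0.44. DCP1A footprints were 31.8 and 38.8 CPM in WT and 48.4 and 58.1 CPM in null cells. These groups did not overlap either, but the change of 0.55 (SE 0.167) did not reach the threshold (FDR = 0.0436). It did so without WT Ribo-Seq replicate 2 (log2 change 0.75, FDR = 0.00124; range over alternatives 0.00124 to 0.329). DCP1A TE was 0.512 and 0.577 in WT and 0.567 and 0.701 in null cells, with overlap (log2 change 0.16, SE 0.168, FDR = 0.607). That change was 0.37 without WT Ribo-Seq replicate 2, 0.30 without XRN1-null Ribo-Seq replicate 1, 0.07 without WT Ribo-Seq replicate 1 and 0.04 without XRN1-null Ribo-Seq replicate 2.

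DCP1B was the least abundant member, with mRNA at 16.7 and 18.1 CPM in WT and 14.2 and 15.8 CPM in null cells. Its footprints were 19.8 and 22.7 CPM in WT and 16.4 and 19.4 CPM in null cells. In both assays the null values lay below the WT values without passing the test, at log2 changes of -0.21 (SE 0.0976, FDR = 0.0904) and -0.29 (SE 0.196, FDR = 0.33). The mRNA change was -0.41 with thinned counts, and the footprint change -0.15 without WT Ribo-Seq replicate 2 and -0.16 without XRN1-null Ribo-Seq replicate 1. Footprint counts of DCP1B were at most 99 per library. Its TE of 1.18 and 1.26 in WT and 1.15 and 1.22 in null cells (log2 change -0.08, FDR = 0.859) was above that of 77.2% of genes in WT.

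The ratio of DCP1A to DCP1B counts needs no scaling between libraries. In RNA-Seq it was 3.71 in both WT libraries and 6.01 and 5.23 in the null libraries. In Ribo-Seq it was 1.61 and 1.71 in WT and 2.95 and 3.0 in null cells. The ratio was higher in each null library than in both WT libraries of its assay, with a mean log2 difference of 0.59 for mRNA (SD within groups 0.1) and 0.85 for footprints (SD 0.0457). An exact two-sided permutation test gave p = 0.333 for each, the smallest that 2 against 2 libraries allow. The other paralog pair, LSM14A and LSM14B, whose transcripts shared 1 stretch of 30 bases, differed less between genotypes. Its mRNA ratio was 2.69 and 2.59 in WT and 3.10 and 3.26 in null cells, a log2 difference of 0.27 (SD within groups 0.0459). For footprints it was 2.17 and 2.63 in WT and 3.49 and 3.01 in null cells, a difference of 0.44 (SD 0.175). The groups of this pair were also separate in both assays, with the same exact p of 0.333.

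**Figure D2:**
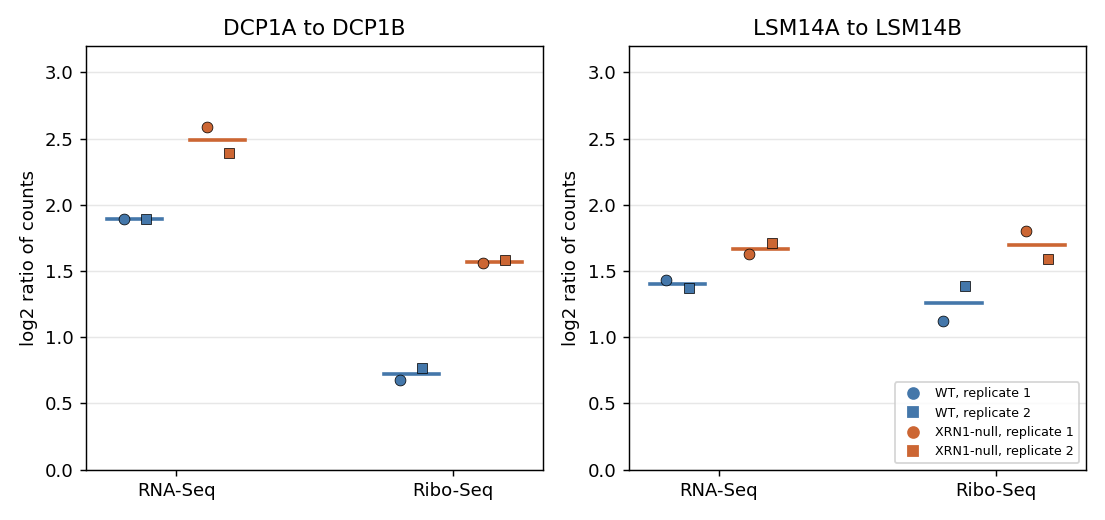
Log2 ratio of the counts of DCP1A to DCP1B (left) and of LSM14A to LSM14B (right) in each library, for RNA-Seq and Ribo-Seq. Circles are replicate 1, squares replicate 2 and bars the mean of 2 replicates. All XRN1-null points lie above the WT points of the same assay, with the larger gap for DCP1A to DCP1B (0.59 for mRNA, 0.85 for footprints).

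EDC3, which binds DCP2 and DDX6 and stimulates decapping, lies at chr15:74922899-74988633 (minus strand, 7 exons). Its mRNA was 85 and 97 CPM in WT and 107 CPM in each null library. The null libraries were higher, with a log2 change of 0.23 (SE 0.0779, FDR = 0.0312) that did not pass. It passed without WT RNA-Seq replicate 2, at 0.33 (FDR = 2.24e-06, in a range to 0.16). EDC3 footprints were 44.3 and 61.3 CPM in WT and 64.3 and 70.2 CPM in null cells. The lowest of these was again WT replicate 1, and the change of 0.31 (SE 0.167, FDR = 0.224) ranged from 0.13 to 0.61 as single libraries were left out, passing without WT Ribo-Seq replicate 2 (FDR = 0.00238, the low end of a range to 0.618). EDC3 TE was 0.521 and 0.632 in WT and 0.602 and 0.658 in null cells, which overlapped (log2 change 0.06, SE 0.182, FDR = 0.881). EDC3 shares 701 exon bases with CLK3 on the other strand, and 8.61% of its 30-base stretches occur there.

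EDC4, the large scaffold that joins DCP1 to DCP2, had a footprint change of the opposite sign to that of EDC3. It lies at chr16:67906955-67918402 (plus strand, 29 exons) and has the longest coding sequence of the 10, at 4203 bases. EDC4 mRNA was 110 and 133 CPM in WT and 133 and 131 CPM in null cells. These groups overlapped (log2 change 0.12, SE 0.0922, FDR = 0.262), and the change was 0.02 without WT RNA-Seq replicate 1 (FDR = 0.785) and 0.26 without WT RNA-Seq replicate 2 (FDR = 2.38e-05, with the spread from the null pair alone), the ends of its range. EDC4 footprints were 136 and 148 CPM in WT and 103 and 111 CPM in null cells. Both null libraries were lower while the mRNA was not, but the change of -0.42 (SE 0.139) did not pass (FDR = 0.0601). It passed without WT Ribo-Seq replicate 1, at -0.47 (FDR = 0.000164; range over alternatives 0.000164 to 0.514). EDC4 TE was 1.24 and 1.12 in WT and 0.770 and 0.845 in null cells. The TE values were separate and all alternatives gave a change of -0.69 to -0.44, yet the change of -0.55 (SE 0.158) stayed above the threshold (FDR = 0.0568). In rank, EDC4 TE went from above 74.8% of genes in WT to above 50.9% in null cells. An lncRNA on the same strand, ENSG00000263126, shares 1307 exon bases with EDC4, and 23.6% of the 30-base stretches of EDC4 occur in another gene. The effect of this sharing on the EDC4 counts was not tested.

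DDX6, a DEAD-box helicase that represses translation and activates decapping, showed the largest footprint change of the 10. It lies at chr11:118618472-118661873 (minus strand, 15 exons). DDX6 mRNA was 153 and 171 CPM in WT and 212 and 205 CPM in null cells. Both null values were higher, and the mRNA rose by 0.36 on the log2 scale (SE 0.0734, FDR = 0.00343). DDX6 footprints were 154 and 200 CPM in WT and 336 CPM in each null library. They rose by 0.92 (SE 0.153, FDR = 0.00435), above the change of 98% of genes and larger than the mRNA change in every alternative that was run for either assay.

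Both DDX6 calls were lost when a null library of the assay was left out and the WT pair alone gave the spread, and kept when a WT library was left out. The mRNA change was 0.33 without XRN1-null RNA-Seq replicate 1 (FDR = 0.0502) and 0.39 without replicate 2 (FDR = 0.0274), and was also not called with thinned RNA-Seq (FDR = 0.0226), in a range of 1.01e-09 to 0.0502. The footprint change was 0.92 without either XRN1-null Ribo-Seq replicate, at FDR = 0.0257 and 0.0239, in a range of 1.47e-18 to 0.0257. DDX6 TE was 1.01 and 1.17 in WT and 1.59 and 1.64 in null cells. The null values were the higher ones, but the change of 0.55 (SE 0.167) did not pass the test of the difference between assays (FDR = 0.0675; range over alternatives 0.00287 to 0.244). The low end came from a fit that pairs the RNA-Seq and Ribo-Seq libraries of one number as a culture replicate block, in which DDX6 TE was called (log2 change 0.56). DDX6 TE was above 69.8% of genes in WT and 87.9% in null cells. Of its 30-base stretches, 5.61% occur in other genes, mainly in the pseudogene DDX6P2, which has no entry in the table.

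PATL1, a scaffold that binds DDX6 and the LSm1-7 ring, had the largest mRNA change of the 10 and a footprint change near 0. It lies at chr11:59404189-59436510 (minus strand, 19 exons). PATL1 mRNA was 101 and 96.7 CPM in WT and 163 CPM in each null library. The groups were far apart, and the mRNA rose by 0.72 on the log2 scale (SE 0.0622, FDR = 6.07e-05), above the change of 89.2% of genes. The call was kept in all 13 alternatives, with changes of 0.69 to 0.78 and a highest FDR of 0.000406. PATL1 footprints were 39.6 and 37.4 CPM in WT and 41 and 40.3 CPM in null cells. The null values lay just above, at a log2 change of 0.09 (SE 0.15, FDR = 0.717).

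The TE of PATL1 was 0.393 and 0.387 in WT and 0.252 and 0.247 in null cells. Both null values were lower, and the change of -0.63 (SE 0.145) had the lowest FDR of the 10 in the TE test, 0.0204, without passing. It was -0.68 to -0.60 over 19 alternatives, with an FDR from 0.00321 to 0.0985. PATL1 TE was already low in WT, above 12.5% of genes, and was above 6.38% in null cells. Of the 30-base stretches of PATL1, 11.0% occur in other genes. For TE, 3 of the 10 genes had an unadjusted p below 0.05 in edgeR's quasi-likelihood test (PATL1, DDX6 and EDC4), beside 23.3% of all genes, 0 passed after adjustment, and DESeq2 called 0. The likelihood ratio test called PATL1 (FDR = 0.00321) and the culture replicate block DDX6 (FDR = 0.00287).

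**Figure D3:**
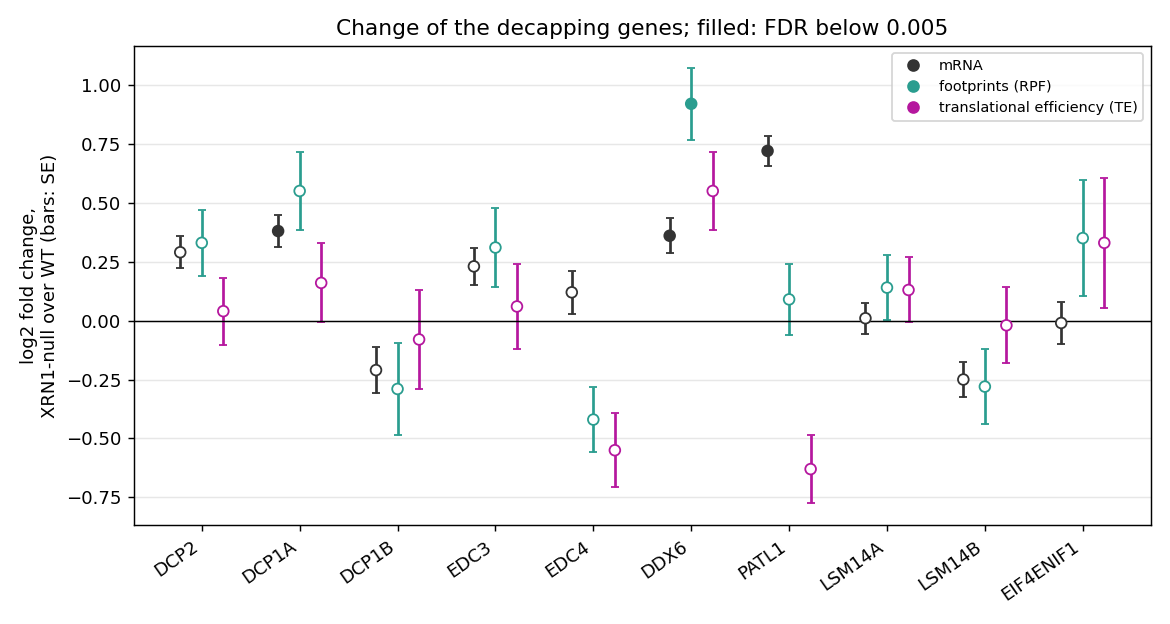
Log2 fold change of XRN1-null over WT for mRNA, footprints (RPF) and TE of the 10 genes, with SE bars, and filled symbols where the FDR was below 0.005. The filled symbols are mRNA of DCP1A, DDX6 and PATL1 and footprints of DDX6. DDX6 TE (0.55) lies above 0, while EDC4 (-0.55) and PATL1 (-0.63) lie below it.

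LSM14A and LSM14B bind DDX6 and take part in P-body assembly and translational repression. LSM14A, at chr19:34663409-34720193 (plus strand, 10 exons), had 163 and 175 CPM of mRNA in WT and 167 and 174 CPM in null cells. The groups overlapped, with a log2 change of 0.01 (SE 0.0664, FDR = 0.854). Its footprints were 99.5 and 103 CPM in WT and 116 and 107 CPM in null cells, a change of 0.14 (SE 0.137, FDR = 0.495) although the groups were separate, and one of 0.08 without XRN1-null Ribo-Seq replicate 1. LSM14A TE was 0.611 and 0.588 in WT and 0.695 and 0.616 in null cells (log2 change 0.13, FDR = 0.628). LSM14B, at chr20:60697517-60710430 (plus strand, 9 exons), had 60.5 and 67.4 CPM of mRNA in WT and 53.9 and 53.2 CPM in null cells. Both null values were lower, but the change of -0.25 (SE 0.0726) did not pass (FDR = 0.0157). It passed by edgeR's likelihood ratio test (FDR = 0.00401) and without WT RNA-Seq replicate 1, at -0.31 (FDR = 5.95e-05; range over alternatives 5.95e-05 to 0.159). LSM14B footprints were 45.8 and 39 CPM in WT and 33.3 and 35.6 CPM in null cells, also without overlap (log2 change -0.28, SE 0.159, FDR = 0.243), and the change was -0.18 without WT Ribo-Seq replicate 1 and -0.40 without replicate 2. Its TE of 0.757 and 0.579 in WT and 0.617 and 0.669 in null cells overlapped (log2 change -0.02, SE 0.161, FDR = 0.964).

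EIF4ENIF1 encodes 4E-T, which binds the cap-binding protein eIF4E and DDX6. The gene lies at chr22:31832963-31892094 (minus strand, 19 exons) and shares 471 exon bases with a noncoding gene on the other strand. Its mRNA was 36.2 and 43 CPM in WT and 39.6 and 39.1 CPM in null cells. The null values lay between the WT values (log2 change -0.01, SE 0.0905, FDR = 0.945). Footprints were 15.6 and 34.2 CPM in WT and 34.3 and 35.6 CPM in null cells. WT replicate 1, which held 30 footprint counts of this gene, stood apart from the other 3 libraries, and the change of 0.35 (SE 0.246, FDR = 0.343) depended on it. Without WT Ribo-Seq replicate 1 the change was 0.03, and without WT Ribo-Seq replicate 2 it was 1.17 (FDR = 0.00011, from that lone library of 30 counts and the spread of the null pair; range 0.00011 to 0.916). The TE of EIF4ENIF1 was 0.431 and 0.797 in WT and 0.866 and 0.909 in null cells (log2 change 0.33, SE 0.276, FDR = 0.504). This change was 0.04 without WT Ribo-Seq replicate 1 and 1.18 without WT Ribo-Seq replicate 2.

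The make-up of the group is given by the share of each gene in the summed counts of the 10, which holds within a library. DDX6 took 23.9% (95% Wilson interval 21.6 to 26.4) and 26.8% (25.3 to 28.4) of the footprints in WT and 38.9% (37.3 to 40.6) and 37.8% (36.0 to 39.6) in null cells. Its share of the mRNA was 16.7% and 17.2% in WT and 18.6% and 18.3% in null cells. The DDX6 footprint intervals of the genotypes were separate. EDC4 took 21.1% and 20.0% of the footprints in WT and 11.9% and 12.5% in null cells, with mRNA shares of 12.0% and 13.4% in WT and 11.7% and 11.8% in null cells. PATL1 took 11.0% and 9.74% of the mRNA in WT and 14.3% and 14.6% in null cells. Its share of the footprints was 6.14% and 5.03% in WT and 4.74% and 4.52% in null cells. So PATL1 made up a larger part of the mRNA of the group in null cells and no larger part of its footprints. These intervals leave out the spread between replicates and treat each count as independent. Reads without molecular identifiers are not independent molecules, so the intervals may be too narrow even for counting error. A larger share of one gene also lowers the others.

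**Figure D4:**
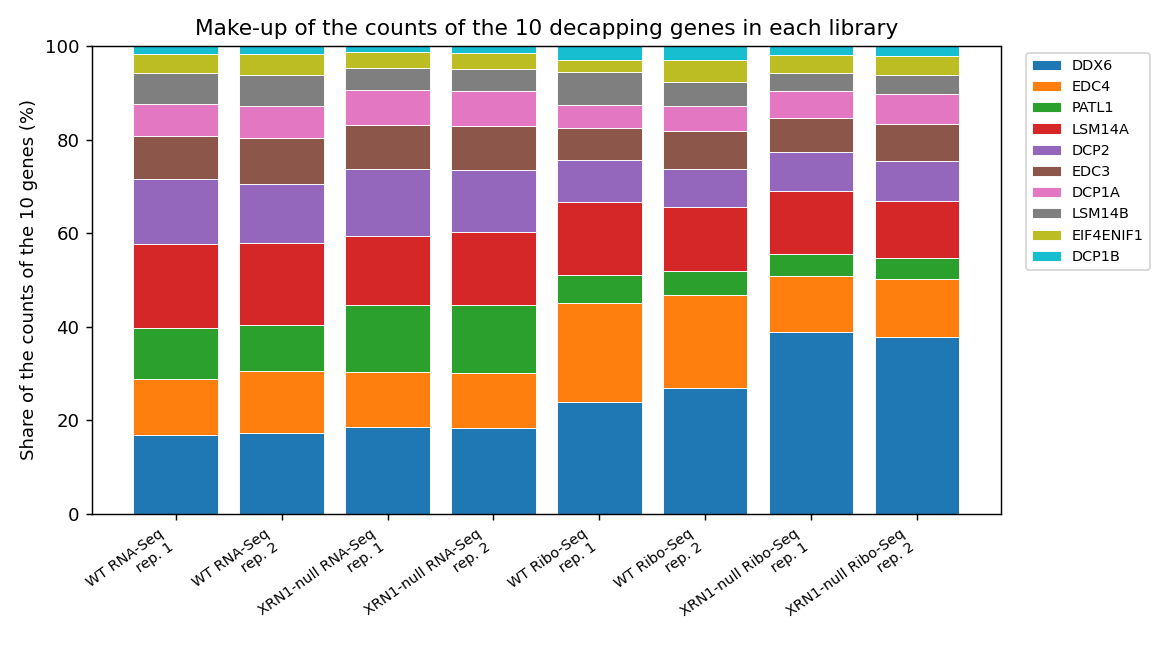
Share of each gene, in percent, in the summed counts of the 10 decapping genes, 1 stacked bar per library. In Ribo-Seq the DDX6 segment grows from 23.9% and 26.8% in WT to 38.9% and 37.8% in XRN1-null, and the EDC4 segment shrinks from 21.1% and 20.0% to 11.9% and 12.5%.

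Levels of different genes were compared per kilobase of the gene width that the authors deposited. In WT mRNA, LSM14A was highest at 44.7 ± 2.19 CPM per kb (SD, n = 2). DDX6 (25.7 ± 1.99), EDC4 (25.2 ± 3.33), LSM14B (24.7 ± 1.87), PATL1 (23.9 ± 0.696) and EDC3 (22.4 ± 2.09) followed, and neighbours in this stretch of the order overlapped. DCP2 came next at 12.4 ± 0.212, ahead of DCP1A (10.7 ± 0.613) and EIF4ENIF1 (10.2 ± 1.23), which overlapped each other, and DCP1B was lowest at 4.10 ± 0.233 CPM per kb. How this width was computed is not given in the sources used here, and per-length levels depend on it. In null mRNA the order was LSM14A (45.2 ± 1.21), PATL1 (39.5 ± 0.0427), DDX6 (32.9 ± 0.813), EDC4 (27.5 ± 0.241), EDC3 (26.2 ± 0.0267), LSM14B (20.7 ± 0.197), DCP2 (15.1 ± 0.911), DCP1A (13.9 ± 0.295), EIF4ENIF1 (10.2 ± 0.0766) and DCP1B (3.54 ± 0.271), with no overlap between neighbours. PATL1 moved from the middle of the order in WT to the place after LSM14A.

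Footprints cover coding sequence, so their levels were also divided by coding length, a choice made after the data were seen. On this scale DDX6 had 122 ± 22.2 CPM per kb in WT and 232 ± 0.139 in null cells (SD, n = 2), ahead of LSM14A at 72.8 ± 1.62 and 80.4 ± 4.66 and DCP2 at 46.8 ± 0.648 and 58.9 ± 2.96. LSM14B, EDC3 and EDC4 followed in WT at 36.7 ± 4.16, 34.6 ± 7.91 and 33.8 ± 2.09 and overlapped each other. DCP1A (20.1 ± 2.84), PATL1 (16.7 ± 0.657), DCP1B (11.5 ± 1.13) and EIF4ENIF1 (8.44 ± 4.45) were lowest in WT. DCP1A was separate from PATL1 there, while DCP1B and EIF4ENIF1 overlapped. In null cells EDC3 (44.1 ± 2.75) was ahead of DCP1A (30.4 ± 3.89) and LSM14B (29.8 ± 1.41), which overlapped, then EDC4 (25.4 ± 1.44), PATL1 (17.6 ± 0.216), EIF4ENIF1 (11.8 ± 0.315) and DCP1B (9.65 ± 1.13). The scale matters for the order: by gene width EDC4 (29.6 ± 1.83), DDX6 (28.0 ± 5.08) and LSM14A (26.8 ± 0.598) led the WT footprints and DCP2 (5.78 ± 0.0801) was second to last. Spearman's rho between the orders on both scales was 0.527 in WT and 0.576 in null cells, over 10 genes that share libraries.

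The neighbours of decapping were read from the same fits, as lists of 27 genes of which 25 were in the table. The LSm1-7 ring, which binds the shortened poly(A) tail and recruits the decapping enzyme through PATL1, had all 7 genes in the table. Of these, 5 mRNAs fell and 2 did not pass, with a median log2 change of -0.51 and a range of -0.82 to -0.20, where 23.2% of all mRNAs fell. The footprints and TE of the ring had 0 calls, with medians of -0.31 and 0.21 and an unadjusted p below 0.05 for 3 and 2 genes. Over all genes that share was 33.0% for footprints and 23.3% for TE. Among 4 other cap enzymes, 1 mRNA rose and 3 did not pass, with 0 calls for footprints and TE, and of 3 small adaptors of DCP2 the 2 in the table were not called in any contrast. Of 12 partners that bring decapping to mRNA or bind DDX6 or 4E-T, 11 were in the table, 5 mRNAs rose and 2 fell, beside 22.9% and 23.2% of all genes. None of the 11 was called for footprints or TE, where 5 and 3 had an unadjusted p below 0.05 (edgeR). Their log2 changes still ranged from -0.67 to 1.04 for footprints, 6 positive and 5 negative. For TE they ranged from -0.72 to 0.53, 5 positive and 6 negative. UPF1, the helicase of nonsense-mediated decay, had 106 and 142 CPM of mRNA in WT and 285 and 296 CPM in null cells, and rose by 1.23 on the log2 scale (FDR = 0.000128). UPF1 footprints were 78.7 and 122 CPM in WT and 203 and 218 CPM in null cells (log2 change 1.04, FDR = 0.00582). ATXN2, a DDX6-binding RNA-binding protein, had 35.2 and 42.3 CPM of mRNA in WT and 81.9 and 79.7 CPM in null cells, and rose by 1.06 (FDR = 6.03e-05). The TE change of ATXN2 was -0.72 (FDR = 0.0184). XRN1 itself rose by 3.01 as mRNA (FDR = 1.92e-06) and was the 1 neighbour called in TE. Leaving out XRN1, 6 neighbours rose and 7 fell as mRNA out of 24, around a median of -0.21, beside the 22.9% and 23.2% of all genes.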

How the data were processed

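The authors deposited raw counts per gene with a gene width for 8 libraries, made by TopHat2 alignment to hg19 after Bowtie2 had been used against rRNA. RNA-Seq libraries were made with a TruSeq RNA kit from extracted total RNA. The paper states that fragments lacking poly(A) tails were not seen by it. Whether the libraries kept strand or the counting used it is not given in the sources used here. Deposited fold changes, p-values, FDR and TE values of the authors' own comparisons were not used, and 0 columns of other samples were found. Groups came from the sample labels. The replicates are called biological, without saying whether they were separate cultures, so p-values measure the spread between these libraries.

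Counts were fitted with edgeR 4.0.16 (R 4.3.3): TMM factors within each assay, genotype as the only term per assay, and for TE the interaction of assay and genotype over all 8 libraries. Quasi-likelihood tests were adjusted over all 10105 genes by Benjamini-Hochberg (FDR) and called below 0.005. A total of 10089 genes gave a TE in every replicate. No further filter was applied: the paper states a cutoff of FPKM above 2 for these genes, and here 9017 of them exceeded it in every library and 24 in none, so shares of all genes refer to this selected set and a missing gene may lie under the cutoff. SE is the log2 change divided by the square root of F. DESeq2 1.42.0, other scalings, thinning, a minimum of 10 counts and leaving out libraries were the alternatives, and scripts were tested on simulated data. With 2 replicates, TE per replicate used libraries of the same number. Around the group means, libraries with the same number deviated with a correlation of 0.178 (RNA-Seq) and 0.0742 (Ribo-Seq) between genotypes, and of 0.341 (WT) and 0.0206 (XRN1-null) between assays, and the labels do not say that a number marks a shared culture, so no block was used in the reported values.

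Positions are from GENCODE release 44 on GRCh37 (hg19), promoters from RefSeq (GRCh38.p14). Shared stretches are 30-base words of the canonical transcript found in transcripts of another gene. The members and lists were chosen with earlier results of these data known. All members and XRN1 are named, and of the neighbours at most the 3 with the largest called change per contrast.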

Additional observations from a re-analysis of the deposited data

How the results depend on the processing

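With RNA-Seq counts thinned to footprint depth, PATL1 was the 1 member whose mRNA was called, while 1727 and 1474 of all genes were still called higher and lower, against 64 and 115 for footprints. The effect of the number of replicates was not tested. Calls over all genes in either direction moved with the settings too, and their share stands in brackets. The count of members called for mRNA, 3 (46.1%), was 6 at an FDR below 0.05 (67.1%), 7 below 0.1 (73.2%), 5 by edgeR's likelihood ratio test (58.2%), 1 with thinned RNA-Seq counts (31.7%), and 1 to 6 as single libraries were left out (27.2% to 67.3%). For RPF, 1 (1.77%) became 2 (15.4%) and 3 (25.2%) at those thresholds, and 0 to 4 on leaving out libraries (1.54% to 23.4%, the highest without WT Ribo-Seq replicate 2). For TE, 0 (1.83%) became 1 (7.48%) and 3 (12.3%) at those thresholds, 1 by the likelihood ratio test (PATL1; 6.60%) and 1 with a culture replicate block that pairs RNA-Seq with Ribo-Seq of the same number (DDX6, FDR = 0.00287; 4.85%). It stayed 0 on leaving out any library (0.188% to 2.33%). With the replicate number as a block, 4 members were called for mRNA (DCP2 was added; 56.0%), 1 for RPF (12.7%) and 0 for TE (1.95%).

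Changes near 0 turned direction. For mRNA, EIF4ENIF1 was 0.01 with RLE factors and DESeq2, 0.05 with library totals and -0.11 to 0.12 on leaving out libraries, and LSM14A was -0.06 with thinning and -0.01 to 0.06 on leaving out libraries. For TE, DCP2 was -0.01 with TMM factors over both assays and -0.02 to 0.1 without single libraries. DCP1B was 0.12 with thinning and -0.2 to 0.06 without single libraries, LSM14B -0.15 to 0.07 and EDC3 -0.1 to 0.38. The order of the levels correlated with the reported order at 0.903 without WT Ribo-Seq replicate 2, 0.915 without WT RNA-Seq replicate 2 and up to 1 without other libraries, and at 0.527 by coding length, an alternative chosen after seeing the data. The cause of these shifts was not tested.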
